A study of Mus musculus with 5 samples.

Results

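The basement membrane genes described here are the collagen IV chains Col4a1, Col4a2, Col4a5 and Col4a6, the laminin chains Lama4, Lamb1 and Lamc1, the linker nidogen-1 (Nid1) and the type XVIII collagen chain Col18a1. These 9 genes were chosen by name, and all 9 are among the 16544 genes listed in each of 5 single-cell libraries of mouse colon. The comparison asks which of endothelial, telocyte, fibroblast, muscle and epithelial cells carried the message of each, in tumor and in normal colon.

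In the study, droplets of the inDrop type captured single cells, and each messenger RNA was counted once by its unique molecular identifier (UMI), read at the 3' end. Tumors were raised in wild-type mice with the mutagen azoxymethane and the colitis-inducing dextran sodium sulfate (AOM/DSS) and were labelled as dissociated normally. All tumor mice received 5FU and Irinotecan, a pair of cytotoxic drugs, with 2 libraries at day 1 (the early group) and 1 library each at day 3 and day 6 (the late group). The remaining library is untreated wild-type colon, labelled fibroblast, after a fibroblast dissociation. Tumor, drug and dissociation therefore cannot be told apart between tumor and normal, and an untreated tumor is not analysed here.

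A basement membrane is a thin sheet of matrix beneath epithelium and around vessels, muscle and nerve. Collagen IV molecules, each of 3 chains, and laminin molecules, each of an alpha, a beta and a gamma chain, form separate networks in it, which nidogen helps to join. Type XVIII collagen carries heparan sulfate and is cut to release endostatin, a fragment known to restrain vessel growth. Telocytes are stromal cells with long processes that lie directly under the colon epithelium.

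Cells with at least 500 genes and at most 15% mitochondrial UMIs were kept, 748 and 2403 at day 1, 1419 at day 3, 2826 at day 6 and 1095 in normal colon. Their median depth was 2903 to 3601 UMIs. Clusters were named "-like" from markers, with the 9 genes left out of the clustering. Tumor endothelial-like cells numbered 12 and 61 at day 1, 58 at day 3 and 15 at day 6, against 48 in normal colon. Tumor fibroblast-like cells numbered 14, 39, 30 and 56 in the same order, against 263. The normal library held 329 columnar epithelial-like cells besides, so that its label describes a minority of its cells. Clusters of telocyte-like (101 cells), muscle-like (74) and pericyte-like cells (26) were found in normal colon and in no tumor library, so these classes have no tumor value. Cells with at least 3 markers of a class did occur among the 139 tumor fibroblast-like cells, 20 for telocyte, 25 for muscle and 17 for pericyte markers. Pairs of libraries shared 4 to 41 cell barcodes.

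The 4 collagen IV genes lie in head-to-head pairs, which is why their start sites are shown. Col4a1 (chr8:11198423-11312826, minus strand, GRCm38) and Col4a2 (chr8:11312805-11449287, plus strand) begin on opposite strands and overlap by 22 bases at their starts. These bases, counted from the first to the last start, lie within both genes. They follow in RefSeq sequence of GRCm38.p6 on the plus strand.
Col4a1 and Col4a2, chr8:11312805-11312826: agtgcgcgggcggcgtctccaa

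Col4a5 (chrX:141475385-141689234, plus strand) and Col4a6 (chrX:141165403-141474076, minus strand) also diverge, but do not overlap. Their RefSeq starts lie 1343 bases apart, so that each has an upstream stretch of its own. Both stretches are shown from the plus strand for Col4a5 and from the minus strand for Col4a6. The capitals mark a CCAAT box or a GC box (GGGCGG), each searched on both strands. The printed Col4a5 stretch ends before the annotated transcript, so that the last searched bases, with a GC box, are not shown.
Col4a5, chrX:141475169-141475384: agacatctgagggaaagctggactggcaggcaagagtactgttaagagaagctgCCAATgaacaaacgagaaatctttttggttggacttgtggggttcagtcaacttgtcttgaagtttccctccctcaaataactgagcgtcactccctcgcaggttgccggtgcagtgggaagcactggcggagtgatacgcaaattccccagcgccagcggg
Col4a6, chrX:141474077-141474326: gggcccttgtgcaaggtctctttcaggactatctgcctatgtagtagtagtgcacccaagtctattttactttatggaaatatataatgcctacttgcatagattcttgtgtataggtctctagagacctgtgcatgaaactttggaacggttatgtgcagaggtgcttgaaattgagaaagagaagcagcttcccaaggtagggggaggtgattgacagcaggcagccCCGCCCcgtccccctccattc

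RefSeq promoters were matched for 7 of the 9 genes. In the 250 bases before the start, CCAAT occurred in 6 of the 7, against 34.5% of 27025 mouse promoters. GGGCGG occurred in 6 of the 7, against 32.9%, and TATAAA in 0 of the 7, against 13.0%. For Col4a1 and Col4a2 the searched bases lie within the partner gene. All these matches describe letters only.

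Col4a1 and Col4a2, the chains of the collagen IV found in nearly all basement membranes, were highest in endothelial-like cells in tumors and in normal colon. Levels are CPM, the UMIs of a gene divided by all UMIs of the summed class and scaled to 1000000. They are not scaled to transcript length and are given in the order day 1 replicate 1, day 1 replicate 2, day 3 and day 6. Endothelial-like Col4a1 stood at 2600.2, 2775, 934 and 2406 CPM in the tumor libraries and at 2439 CPM in normal colon (95% exact Poisson interval 2215 to 2678, counting error only). Day 3 was the low library, and the other 3 lay near the normal value. The day 3 endothelial-like cells also had the lowest sum of endothelial markers, 3743 CPM against 7776 to 8913 CPM in the other tumor libraries, and the highest sums of columnar (7695 CPM) and squamous markers (5925 CPM), whose part in the result was not tested. Fibroblast-like Col4a1 was 1750.3, 2297, 211 and 797 CPM in tumors and 954 CPM in normal colon (885 to 1026). Within each of the 4 tumor libraries the endothelial-like sum exceeded the fibroblast-like sum, although the ranges of the classes overlapped across libraries.

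By the mean over libraries lymphatic-like cells came after both, at 1468, 437 and 355 CPM Col4a1 in the 3 tumor libraries with at least 10 such cells and 667 CPM in normal colon. In normal colon pericyte-like cells, which wrap small vessels, held 2082 CPM (1756 to 2451), an interval that overlapped the endothelial-like one. Telocyte-like cells held 1295 CPM (1161 to 1441) and muscle-like cells 1234 CPM (1087 to 1395). Those values overlapped each other and lay above the normal fibroblast-like interval.

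Endothelial-like cells were few but held a large part of the message. They made up 1.60%, 2.54%, 4.09% and 0.531% of the tumor cells and held 63.8%, 36.8%, 60.04% and 28.9% of the Col4a1 UMIs. In the normal library, 4.38% of the cells were endothelial-like with 21.2% of the Col4a1 UMIs, and 24.0% were fibroblast-like with 35.0%.

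Col4a2 also led in endothelial-like cells. Endothelial-like cells held 1330.2, 1386, 554 and 1024 CPM Col4a2 in tumors and 1652 CPM (1469 to 1851) in normal colon. Among endothelial-like, fibroblast-like and columnar-like cells, only there did normal stand above all 4 tumor libraries. Fibroblast-like cells held 875, 1229, 147 and 531 CPM Col4a2 in tumors and 498 CPM (449 to 551) in normal colon. Pericyte-like cells of normal colon held 1561 CPM (1281 to 1885), next to 656 CPM in muscle-like and 634 CPM in telocyte-like cells.

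In normal endothelial-like, pericyte-like, lymphatic-like, telocyte-like, muscle-like and fibroblast-like cells Col4a1 took 57.1 to 67.1% of the pair's UMIs. Over 37 sums with at least 20 UMIs of the pair, Col4a1 took a median of 65.7% of the pair's UMIs, with a range of 40.3 to 80.0%. The normal pericyte-like cells (57.1%, exact binomial interval 50.8 to 63.3%) and endothelial-like cells (59.6%, 56.0 to 63.2%) lay lower than the telocyte-like cells (67.1%, 62.8 to 71.2%). The intervals of both overlapped the telocyte-like one. Across 40 sums of class and tumor library, the log2 levels of Col4a1 and Col4a2 correlated with r = 0.976, as a description over sums that share libraries.

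**Figure D1:**
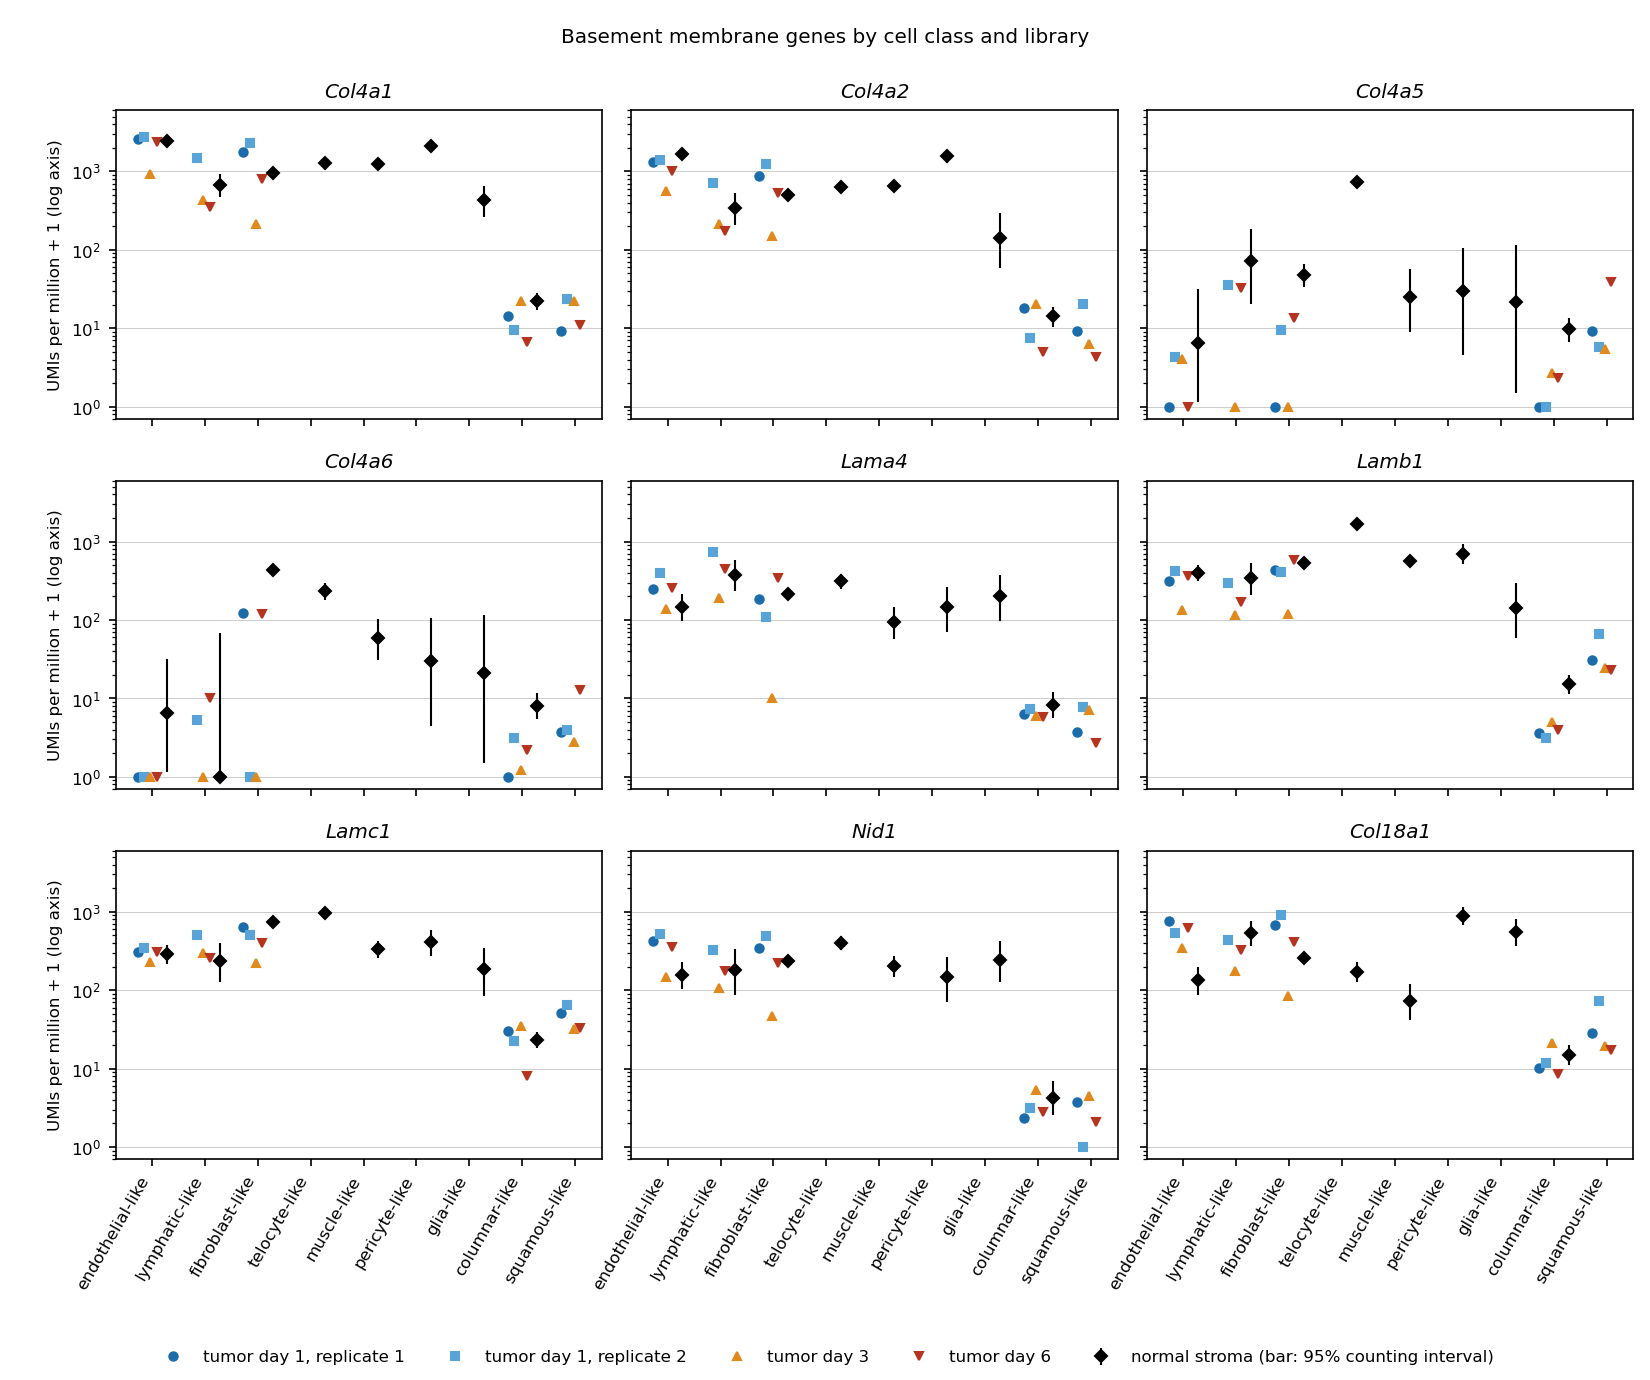
Level of each of the 9 genes (CPM + 1, log axis) in each cell class, with 1 coloured point per tumor library and a black diamond with its 95% counting interval for the normal library. Col4a1 and Col4a2 lie above 100 CPM in every stromal class shown and below 30 CPM in columnar and squamous epithelial-like cells, while Col4a5 is highest in normal telocyte-like cells (729.9 CPM) and Col4a6 in normal fibroblast-like cells (437 CPM).

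Col4a5 and Col4a6, which together form the collagen IV known from epithelial and smooth muscle basement membranes, had other sources. In normal colon telocyte-like cells held 729.9 CPM Col4a5 (630.0 to 841; 191 UMIs), against 46.4 CPM (32.3 to 64.5) in fibroblast-like, 24.3 CPM (7.89 to 56.7) in muscle-like and 5.58 CPM in endothelial-like cells. After each cell was thinned to 1000 UMIs, 39.1% of telocyte-like cells had a Col4a5 UMI, against 3.43% of fibroblast-like cells and 0 of 135 immune cells (up to 2.70%). Unthinned, the share of telocyte-like cells was 63.0% at a median depth of 2242 UMIs, against 2.96% of immune cells at 2573 UMIs.

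Normal fibroblast-like cells held the highest level of Col4a6, 437 CPM (391 to 487; 330 UMIs). Telocyte-like cells followed at 233 CPM (178 to 299) and muscle-like cells at 58.3 CPM (30.1 to 102). The intervals of these 3 classes did not overlap. Thinned to 1000 UMIs, 30.04% of fibroblast-like cells had a Col4a6 UMI (60.9% unthinned), against 1.48% of immune cells.

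In normal colon, Col4a5 and Col4a6 thus stood in opposite proportion in neighbouring stromal classes. Col4a5 took 75.8% (70.0 to 80.9%) of the pair's UMIs in telocyte-like cells and 9.59% (6.77 to 13.1%) in fibroblast-like cells. Of the 101 telocyte-like cells, 31 had UMIs of Col4a5 alone, 7 of Col4a6 alone, 29 of both and 34 of neither. Of the 263 fibroblast-like cells, 7 had Col4a5 alone, 127 Col4a6 alone, 22 both and 107 neither. The 3 normal fibroblast-like clusters held 439, 434 and 445 CPM Col4a6 and 22.5, 54.2 and 51.9 CPM Col4a5.

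In tumors the pair was scarce in stroma. Fibroblast-like Col4a6 was 122, 0, 0 and 117 CPM, from 25 UMIs in all, and Col4a5 was 0, 8.42, 0 and 12.4 CPM. With 39 and 30 cells, the 2 libraries at 0 allow Col4a6 levels of up to 15.5 and 33.9 CPM. Endothelial-like cells had no Col4a6 UMI in any tumor library. By number of UMIs more Col4a6 lay in squamous-like cells, an epithelial class of the tumor libraries, with 61 in all and 55 at day 6. Their levels were 2.76, 2.91, 1.75 and 12.0 CPM. An unnamed cluster led by Mt4 held 47 Col4a6 UMIs.

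By the mean over libraries, tumor Col4a5 was highest in lymphatic-like cells, at 34.9, 0 and 31.9 CPM in day 1 replicate 2, day 3 and day 6, although squamous-like cells were higher in the last pair of these. By number of UMIs the largest source was epithelial. Squamous-like cells, a class of tumor epithelium, held 8.28, 4.85, 4.37 and 38.0 CPM Col4a5, and the 175 UMIs at day 6 were 87.5% of that library's Col4a5. Day 6 alone was high. Immune cells, a comparison for free RNA whose use as such was not tested, held 0, 0.541, 0 and 2.37 CPM. Col4a5 took 76.1% (70.0 to 81.4%) of the pair in squamous-like cells at day 6, and 52.4% in columnar-like cells of that library. Among the squamous-like clusters it was spread over a cluster led by Ltf and Psca (303 cells, 41.9 CPM) and over a cluster led by Trp63, Krt17 and Col17a1 (368 cells, 25.7 CPM), genes of which the last 3 are known from basal epithelial cells.

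**Figure D2:**
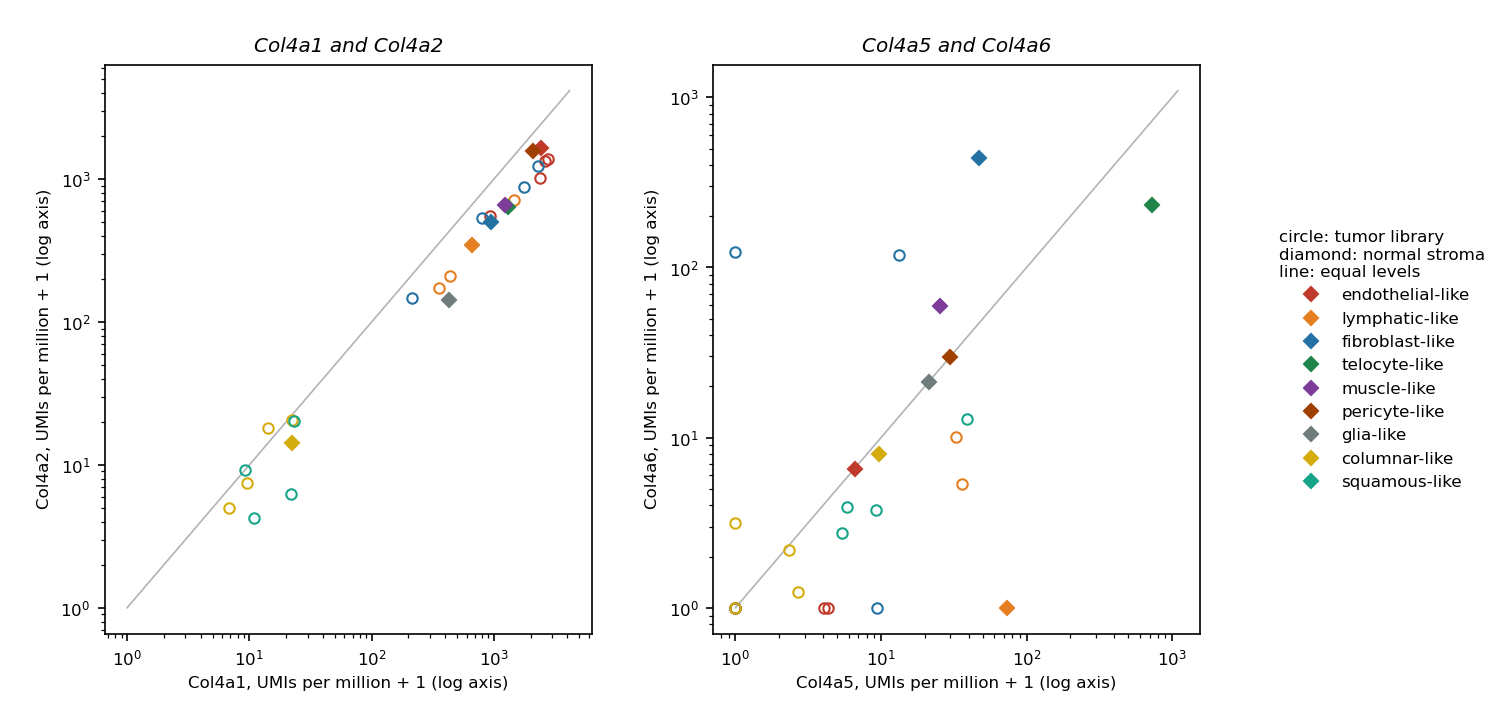
Level of Col4a2 against Col4a1 and of Col4a6 against Col4a5 (CPM + 1, log axes), with a circle for each class in a tumor library, a diamond for each class in the normal library and a line of equal levels. The Col4a1 and Col4a2 points run along a single band, while Col4a6 exceeds Col4a5 in normal fibroblast-like cells (437 against 46.4 CPM) and falls below it in normal telocyte-like cells (233 against 729.9 CPM).

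The laminin chains Lama4, Lamb1 and Lamc1, which assemble together in the laminin of vessel walls, did not share 1 leading class. Lama4 (chr10:38965515-39110188, plus strand), the alpha chain known from endothelium, was highest in lymphatic-like cells, at 729, 192 and 451 CPM in 3 tumor libraries and 379 CPM (234 to 579) in normal colon. Endothelial-like cells held 248, 396, 138 and 251 CPM Lama4 in tumors and 145 CPM (94.8 to 213) in normal colon. Fibroblast-like cells held 183, 109, 9.19 and 339.7 CPM in tumors and 211 CPM (179 to 246) in normal colon. The 3 tumor ranges overlapped, and only the day 3 fibroblast-like sum, from 1 UMI, fell far below the rest. In normal colon telocyte-like cells came second, at 309.5 CPM Lama4 (246 to 385), an interval that overlapped the lymphatic-like one. Muscle-like cells held 92.3 CPM (55.6 to 144).

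Lamb1 (chr12:31265234-31329644, plus strand), the beta chain, was highest by level in telocyte-like cells of normal colon, at 1674 CPM (1521 to 1838; 438 UMIs). Pericyte-like cells held 694 CPM, muscle-like 568 CPM and fibroblast-like cells 537 CPM (486 to 591), with overlapping intervals, and endothelial-like cells 402 CPM (314 to 506). Thinned to 1000 UMIs, 68.5% of telocyte-like cells had a Lamb1 UMI, against 39.9% of fibroblast-like, 40.9% of endothelial-like and 2.22% of immune cells. In tumors, fibroblast-like Lamb1 was 427, 408, 119 and 581 CPM and endothelial-like Lamb1 316, 416, 132 and 359 CPM. Endothelial-like cells were higher in 2 of the 4 libraries and fibroblast-like cells in the other 2.

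Lamc1 (chr1:153218922-153332786, minus strand), the gamma chain of most laminins, also led in telocyte-like cells, at 974 CPM (859 to 1102), followed by fibroblast-like cells at 729 CPM (669 to 792). Pericyte-like (405 CPM), muscle-like (330.3 CPM) and endothelial-like cells (290.2 CPM, 217 to 381) came after them. In tumors fibroblast-like Lamc1 was 631, 505, 221 and 401 CPM and lay above endothelial-like Lamc1, at 308, 342, 229.6 and 305 CPM, in 3 of 4 libraries.

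Nid1 (chr13:13437551-13512269, plus strand), the linker of the laminin and collagen IV networks, was highest in endothelial-like cells of tumors, at 428, 520.1, 147 and 359 CPM, and above fibroblast-like cells (346, 492, 46.0 and 222 CPM) in each of the 4 libraries. In normal colon this order was turned. Telocyte-like cells led at 401 CPM (328 to 486), and fibroblast-like cells held 234 CPM (201 to 272) against 156 CPM (104 to 226) in endothelial-like cells, with overlapping intervals. The normal fibroblasts were uneven in Nid1, with 579 CPM (457 to 722) in the 40 cells of a Cilp, Inmt and Pi16 cluster, against 180.3 and 151 CPM in the other clusters.

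Col18a1 (chr10:77052178-77166548, minus strand) was carried in tumors by endothelial-like cells, at 767, 530.2, 343 and 629 CPM, and by fibroblast-like cells, at 672, 905, 82.7 and 414 CPM. Normal endothelial-like cells held 134 CPM (85.8 to 199; 24 UMIs), below each of the 4 tumor values. In normal colon the gene led in pericyte-like cells, at 882 CPM (675 to 1133), ahead of glia-like (549 CPM) and lymphatic-like cells (541 CPM). Telocyte-like cells (172 CPM) and muscle-like cells (72.9 CPM) were low for it. The normal fibroblast-like cluster high in Nid1 was the lowest in Col18a1, at 66.8 CPM (30.5 to 127), against 389 and 258 CPM in the other clusters.

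Epithelial levels were low beside those of stroma, apart from Col4a5 in squamous-like cells of tumors. Columnar-like Col4a1 was 13.2, 8.57, 21.2 and 5.75 CPM in tumors and 21.2 CPM in normal colon. Immune cells of the same libraries held more, 32.9, 71.4, 32.0, 8.28 and 42.9 CPM. The columnar-like value of day 1 replicate 2 rests on 4 UMIs, and the immune value of day 3 on 3 UMIs. The unnamed F3-led cluster of day 1 replicate 2 held 32.7 CPM (190 UMIs). The part of free RNA in these values was not tested. Thinned to 1000 UMIs, with the tumor libraries pooled, 1.36% of columnar-like and 1.97% of squamous-like cells had a Col4a1 UMI. The shares were 3.52% of immune, 49.3% of fibroblast-like and 65.5% of endothelial-like cells. Their median depths were 2707, 4785, 2446.5, 2799.5 and 3964 UMIs, and the unthinned shares 6.09%, 6.89%, 9.67%, 68.7% and 82.1%.

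Squamous-like Lamb1 stood above the immune value in each tumor library, with separate intervals only in day 1 replicate 2 and day 6. Lamc1 was less clear. Squamous-like Lamb1 was 30.4, 65.0, 23.6 and 22.4 CPM, against 8.23, 13.0, 10.7 and 5.33 CPM in immune cells, and Lamc1 was 49.7, 63.1, 31.4 and 32.4 CPM, against 26.7, 35.1, 10.7 and 26.6 CPM. The immune value of Lamc1 at day 3 was 1 UMI, and at day 6 its interval (19.4 to 35.6 CPM) held the squamous-like value. Thinned, with the tumor libraries pooled, 3.04% of squamous-like cells (2.15 to 4.16%) had a Lamb1 UMI, against 0.820% of immune cells (0.394 to 1.502%). The Lamc1 shares, 3.04% and 2.70%, had overlapping intervals. These intervals count pooled cells and leave out the spread between libraries. Day 6 gave 728 squamous-like cells, against 50, 187 and 278 in the other tumor libraries. Lamb1 was 57.5 CPM (48.7 to 67.4) in the Trp63-led and 6.24 CPM (3.64 to 9.99) in the Ltf-led squamous-like cluster, and Col18a1 was 42.0 and 8.44 CPM. The same clusters differed less in Lamc1, at 51.8 and 27.5 CPM. In the U90926-led squamous-like cluster (129 cells) Lamb1 was 33.7 CPM (16.2 to 62.0) and Col18a1 60.7 CPM (35.9 to 95.9). The Dmkn-led cluster held 23.8 and 20.5 CPM, and the Calm4-led cluster 0 and 11.7 CPM. Clusters pool the tumor libraries.

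Some tumor fibroblast-like cells carried pericyte markers, and these cells held much of the collagen IV message of that class. Of 139 such cells, 17 had at least 3 of 7 pericyte markers, 13 of them in day 1 replicate 2, 3 in day 1 replicate 1, 1 at day 6 and 0 at day 3. The split was chosen after the data were seen, and 16 further cells had 2 of the markers. In these 17 cells Col4a1 was 4724 CPM (4305 to 5173) against 693 CPM (619 to 774) in the other 122 cells, a 6.82-fold difference, and they held 466 of 784 Col4a1 UMIs (59.4%). Nid1 was 1014 against 163 CPM, Col18a1 1774 against 325 CPM and Col4a2 1957 against 532 CPM. Lamc1 was 729.9 against 366 CPM, Lamb1 517 against 379 CPM and Lama4 172 against 161 CPM. These values pool libraries. Within day 1 replicate 2 alone, Col4a1 was 4848 against 920.1 CPM, Nid1 1104 against 162 CPM, Col18a1 1944 against 343 CPM, Col4a2 1908 against 862 CPM and Lama4 168 against 77.8 CPM, the last with overlapping intervals. All 25 Col4a6 UMIs of the class were in the other cells. The marker-carrying cells were deeper, with a median of 5183 against 2532.5 UMIs.

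**Figure D3:**
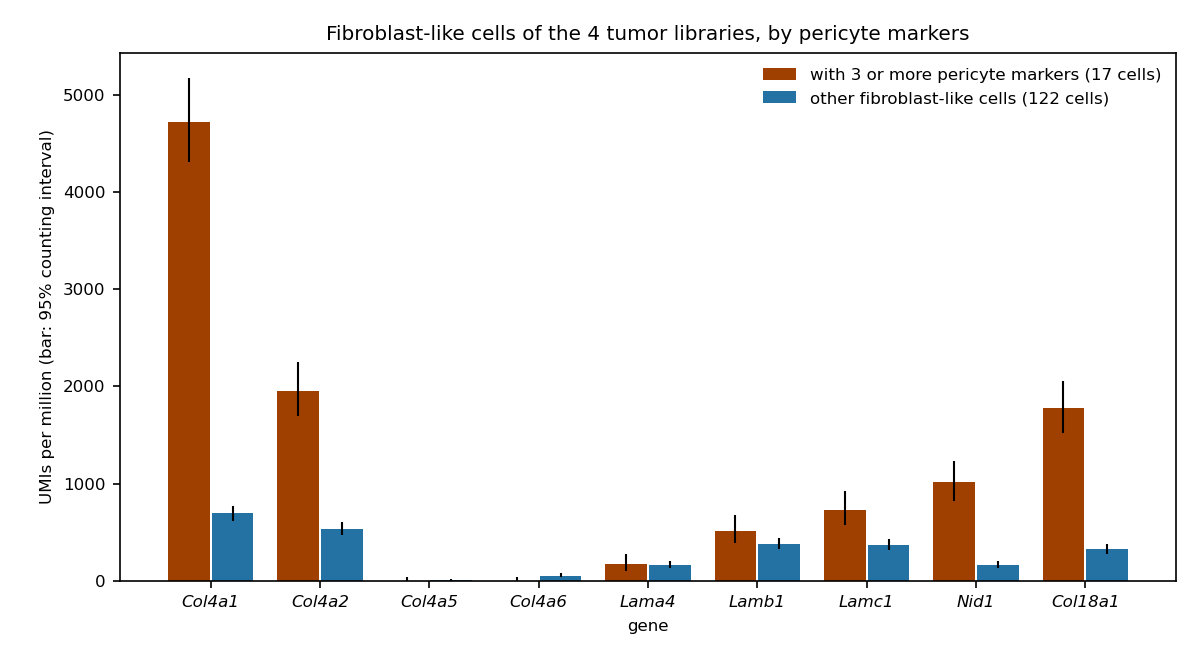
Level of each gene (bars, CPM) in the 17 tumor fibroblast-like cells with at least 3 of 7 pericyte markers and in the other 122, with exact 95% Poisson intervals. Libraries are pooled, and the Col4a1, Col4a2, Nid1 and Col18a1 bars of the marker-carrying cells (13 of 17 from day 1 replicate 2) stand above the others beyond their intervals.

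Tumor and normal were compared on the sums with edgeR's quasi-likelihood test and Benjamini-Hochberg adjustment over all genes, with a single normal library, whose spread was taken to equal that of the tumor libraries. In fibroblast-like cells 0 of 8 members tested passed an adjusted p of 0.05, against 1.42% of 5790 genes. DESeq2 also called 0, and 1 member, Col4a6, had an unadjusted p under 0.05. Its log2 difference was -3.37 ± 1.17 (SE; adjusted p = 0.20), lower in 4 of 4 tumor libraries. All 4 tumor libraries lay below normal for Col4a6 and Lamc1, 2 of 8 members, against 16.1% of all genes, and above normal for 0 of 8, against 29.2%.

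The Col4a6 difference passed the threshold in other settings, at -4.68 (adjusted p = 0.0246) without day 6, -2.82 (0.0434) without day 1 replicate 2, -3.25 (0.00949) with the 3 dual-index libraries (2 of tumor, 1 of normal colon) alone and -3.46 (0.000212) without a filter on low counts. In the main setting Col4a5 was too low to be tested in either stromal class, as was Col4a6 in endothelial-like cells. With telocyte-like cells added to the normal fibroblast-like sum, Col4a5 was tested and its log2 difference was -5.25. Those cells held 191 Col4a5 UMIs and had no tumor counterpart. The addition thus raised the normal side alone, so this value cannot show a change in tumors. That setting was chosen after the data were seen. The other fibroblast-like differences ran from -1.10 for Lamc1 to 0.65 for Col18a1, and the median over members was -0.43, against 0.14 over all genes. Col4a1 was at 0.02 ± 1.05, and at -0.90 (adjusted p = 0.78) without the 17 cells with pericyte markers.

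In endothelial-like cells 0 of 7 members passed in edgeR or DESeq2, against 2.05% of 6040 genes, and 1, Col18a1, had an unadjusted p under 0.05. Col18a1 was higher in 4 of 4 tumor libraries, with a log2 difference of 1.84 ± 0.81 (adjusted p = 0.31). Nid1 was at 0.97 ± 0.80 and Lama4 at 0.59 ± 0.76, while Col4a1 was at -0.41 ± 0.73 and Col4a2 at -0.86 ± 0.68. The members median was -0.19, against 0.19 over all genes. All 4 tumor libraries lay above normal for 1 of 7 members, against 29.6% of genes, and below it for 1, Col4a2, against 20.2%.

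Other cell types' markers moved with these groups. Summed pericyte markers were 2020 CPM in the normal endothelial-like cells and 15.03 to 63.8 CPM in the tumor ones, and the part of this in the collagen IV and Col18a1 values was not tested. Summed columnar markers were 2187 to 7695 CPM in tumor endothelial-like cells and 586 CPM in the normal ones. In fibroblast-like cells they were 2541 to 7471 against 656 CPM. Summed squamous markers were 1165 to 5925 CPM in tumor endothelial-like cells and 33.5 CPM in the normal ones. In fibroblast-like cells the squamous sums were 812 to 6332 against 39.7 CPM. The normal library lists 8 squamous markers and the tumor libraries 10. The part of these sums in the results was not tested.

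In columnar-like cells 0 of 9 members passed in edgeR or DESeq2, against 1.20% of 12543 genes, and 3 had an unadjusted p under 0.05. These were Col4a6 at -3.13 ± 1.09, Col4a5 at -2.92 ± 0.99 and Lamb1 at -2.21 ± 0.70 (adjusted p = 0.25, 0.24 and 0.22). With Lama4, they were the 4 of 9 members below normal in all 4 tumor libraries, against 24.1% of genes, and 0 of 9 lay above, against 25.3%. With the highest Scrublet scores removed, normal columnar-like Lama4 fell from 7.37 to 3.17 CPM, below the tumor values without that removal (4.796 to 6.43 CPM), and Lamb1 from 14.1 to 5.28 CPM. Summed fibroblast markers were 388 CPM in normal columnar-like cells and 4.29 to 73.7 CPM in tumor ones, and muscle markers 221 against 30.003 to 88.5 CPM, and the part of these in the result was not tested. Normal columnar-like cells held 8.65 CPM Col4a5 and 14.1 CPM Lamb1, near or below the 8.93 and 33.9 CPM of immune cells of that library.

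The difference between both stromal classes in their tumor-normal change was tested as an interaction. It passed for 0 of 8 members in edgeR or DESeq2, against 2.29% of 7256 genes, and 1, Lama4, had an unadjusted p under 0.05. The largest values, endothelial-like minus fibroblast-like, were 1.65 ± 0.75 for Lama4 (adjusted p = 0.42), 1.35 ± 0.71 for Col18a1 (0.56) and 1.19 ± 0.64 for Nid1 (0.57).

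**Figure D4:**
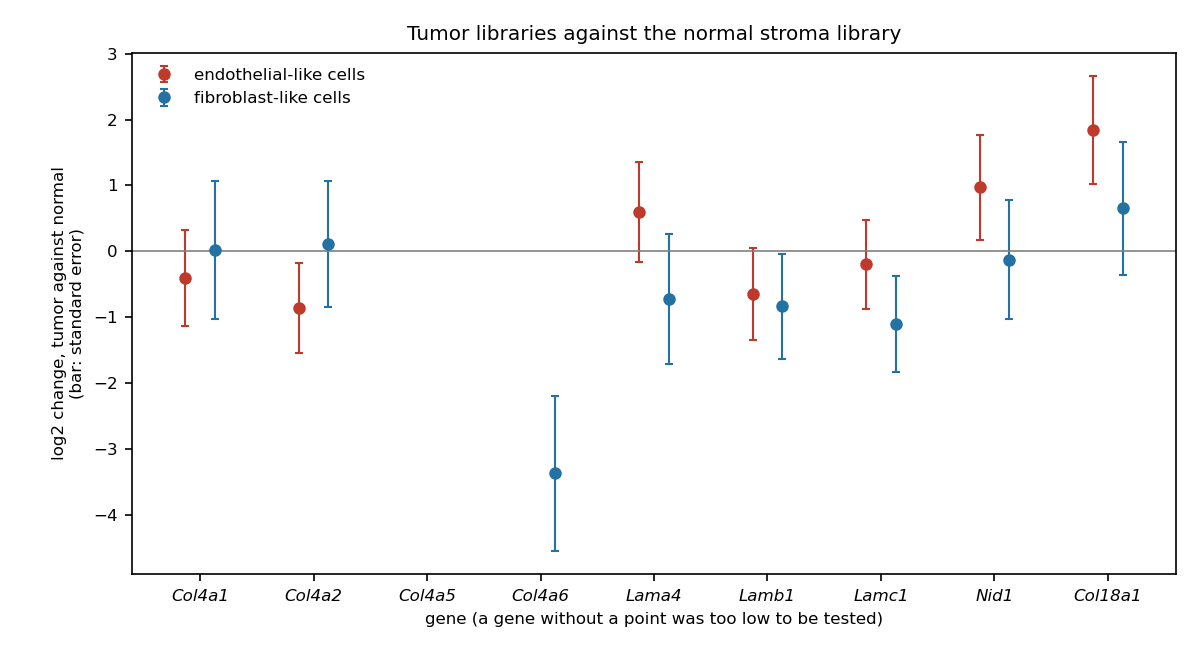
Log2 difference, tumor minus normal, of each member tested in endothelial-like and fibroblast-like cells, with standard errors from edgeR as bars. Col18a1 in endothelial-like cells (1.84) and Col4a6 in fibroblast-like cells (-3.37) lie farthest from 0, and no member passes an adjusted p of 0.05.

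Late (day 3 and day 6) against early (day 1) libraries gave no call among members either. In fibroblast-like cells 0 of 3281 genes (0%) and 0 of 8 members passed in edgeR, with 266 genes and 1 member, Col4a1, at an unadjusted p under 0.05, and DESeq2 called 9 genes and 0 members. Col4a1 was lower by -1.90 ± 0.79 (log2; adjusted p = 0.60), Col18a1 by -1.55, Col4a2 by -1.52 and Nid1 by -1.52, and the member median was -1.13, against 0.05 over all genes.

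The difference was larger with day 3 alone. Without day 6, Col4a1 was at -3.23 (adjusted p = 0.0145), Col18a1 at -3.22 (0.0126), Nid1 at -3.16 (0.015) and Col4a2 at -2.81 (0.0318). Without day 3, Col4a1 was at -1.25 (adjusted p = 0.79), and without the cells with pericyte markers at -0.55 (adjusted p = 0.93). The day 3 fibroblast-like cells also had the lowest sum of fibroblast markers, 6203 CPM against 12299 to 30427 CPM in the other tumor libraries, and the highest sum of columnar markers, 7471 CPM. The part of these in the result was not tested.

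In endothelial-like cells 0 of 7 members passed late against early in edgeR or DESeq2, against 0.0612% of 4902 genes, and 0 had an unadjusted p under 0.05. All 7 values lay between -0.83 for Nid1 and -0.13 for Lamc1. In squamous-like cells 0 of 4 members and 0% of 9460 genes passed in edgeR, with 387 genes and 1 member, Col18a1 (-1.44 ± 0.58, adjusted p = 1.00), at an unadjusted p under 0.05. DESeq2 called 18 genes and 0 members there.

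Further basement membrane genes were taken as 36 genes in 4 lists. Of 10 other chains, 7 were tested tumor against normal in fibroblast-like cells and 0 passed. Of 9 receptors, 1 of 8 tested was higher in tumor fibroblast-like cells, Itga6, an integrin subunit that binds laminin, at 5.15 (adjusted p = 0.039), and 0 of 8 passed in endothelial-like cells. The Itga6 call was lost without day 1 replicate 1 (5.23, adjusted p = 0.069) and with telocyte-like cells added to the normal sum (4.07, adjusted p = 0.073). Of 8 linkers and proteoglycans, 0 of 6 and 0 of 5 passed, and of 9 folding and modifying enzymes 0 of 9 and 0 of 7. In columnar-like cells no gene of the 4 lists passed. The median of the folding list was -0.80 in fibroblast-like and -0.43 in endothelial-like cells, against 0.14 and 0.19 over all genes.

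Col15a1, a close relative of Col18a1 among basement membrane collagens, differed between the stromal classes. Endothelial-like cells held 1954, 1168, 768 and 1706 CPM in tumors and 854 CPM (724 to 1000) in normal colon. Fibroblast-like cells held 265, 219, 18.4 and 136 CPM in tumors and 746 CPM (686 to 810) in normal colon. The fibroblast-like values of all 4 tumor libraries were below the normal value, and 3 of the 4 endothelial-like values were above it. The interaction was 3.13 ± 0.64 (edgeR, adjusted p = 0.00274), a call lost with DESeq2 (3.22, adjusted p = 0.13).

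Genes with the most similar pattern to each member were ranked by Pearson's r of log2 levels over 40 sums of class and tumor library and 7902 genes. The nearest to Col4a1 were Adamts4, a secreted protease (r = 0.951), and Ptprm, a receptor phosphatase (0.941), and the nearest to Col4a2 were Adamts4 (0.952) and Pxdn (0.950), the peroxidase that crosslinks collagen IV. Nid1 was nearest to Fermt2, an adaptor of integrin adhesions (0.975), and Adamts4 (0.953), and Col18a1 to Dlc1 (0.944) and Fermt2 (0.938). Lama4 was nearest to Ptprm (0.953) and Plxna4 (0.929), Lamb1 to Fstl1 (0.950) and Fbxl7 (0.946), and Lamc1 to Pxdn (0.906) and Samd4 (0.898). Col4a6 had C4b, a complement component (0.885), and Sdk1 (0.826) as nearest, and Col4a5 had Galnt18 (0.748) and Pard6g (0.721). The r of Col4a5 and Col4a6 with the other members was 0.255 to 0.540. The sums share libraries and depth, and these values are descriptions.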

How the data were processed

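Raw UMI counts per gene and cell were deposited by the authors as 1 table per library, made with dropEst per the study's methods on GRCm38 per the labels, with no normalization. Total counts were 5132360 to 16904947 per library. Cells were clustered separately for tumor and normal colon in scanpy 1.11.5 (2000 variable genes, without the members and the listed basement membrane genes, 20 components, Leiden at resolution 1) and named from markers. Doublets were not removed (Scrublet called 0 to 7 cells per library), and removing the top 6% of scores was an alternative. Counts were summed per library and class with at least 10 cells. CPM intervals are exact Poisson, shares exact Clopper-Pearson, all at 95% and for counting error only, and the limit for a count of 0 is the upper end of its interval. Sums were tested with edgeR 4.0.16 (quasi-likelihood, TMM, filterByExpr, Benjamini-Hochberg adjustment) in R 4.3.3, and with DESeq2 1.42.0 as an alternative. The p-values measure the spread between libraries. The scripts were tested on simulated data. Named genes were all members, list genes past the threshold and, for likeness, the 2 with the highest r. The result of 1 list gene is not reported here. The members and lists were chosen with earlier results of these data known. Classes were compared by levels only. Alternatives were no filter, other scaling, single libraries left out, dual-index libraries alone, a term for library structure (single or dual index), other resolutions and means over cells.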

Additional observations from a re-analysis of the deposited data

Results flagged for a closer look

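The tumor-normal difference itself differed between endothelial-like and fibroblast-like cells for 7 genes of the basement membrane lists, by edgeR's interaction test with Benjamini-Hochberg adjustment (endothelial-like minus fibroblast-like, log2), against 2.29% of all 7256 genes tested. They were 2 of 7 other chains, 2 of 6 linkers and proteoglycans, 3 of 8 receptors and 0 of 9 folding enzymes tested. With DESeq2 the Itga6 call held and the other 6 were lost, with adjusted p-values of 0.094 (Itga1) to 0.47 (Tinagl1). Tinagl1 was also lost without day 3 (adjusted p = 0.071) and without pericyte-marker cells (0.0502), and Lama5 with telocyte-like cells added to the normal fibroblast-like sum (0.14). Col15a1 was the one with a positive value, 3.13 (adjusted p = 0.00274), from -2.62 in fibroblast-like and 0.48 in endothelial-like cells. The other 6 were negative. Itga6 was at -6.10 (5.18e-06), Bcam, a laminin receptor, at -5.73 (0.000682) and Itga1, a collagen-binding integrin subunit, at -4.03 (0.00228). The laminin alpha chains of epithelia, Lama3 and Lama5, were at -7.09 (0.00335) and -3.54 (0.00857), and the matrix protein Tinagl1 at -3.08 (0.0208). Bcam was at 40.7, 0, 229.8 and 49.4 CPM in tumor fibroblast-like cells, against 3.97 CPM in normal ones. The normal fibroblast-like sum held 4 UMIs of Itga6, 3 of Bcam and 0 of Lama3, so that the fitted size for Lama3 depends on the prior count. Summed columnar markers were 2541 to 7471 CPM in tumor and 656 CPM in normal fibroblast-like cells. Summed squamous markers were 812 to 6332 CPM in tumor and 39.7 CPM in normal fibroblast-like cells. The part of either sum in these values was not tested. None of the 9 members met the threshold in this test.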

How the results depend on the processing

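Tumor endothelial-like and fibroblast-like sums rest on 12 to 61 cells, and the normal library has no replicate. Tumor columnar-like sums rest on 83 and 27 cells at day 1, 869 at day 3 and 1347 at day 6. In day 1 replicate 2, unnamed clusters led by F3, Mt4 and Trim30a held 514, 388 and 315 cells outside the columnar-like and squamous-like sums. No paired analysis was made between tumor and normal or late and early libraries, because the labels used here name no animal that links them. The interaction had library as a block throughout. Across alternatives, 449 member values kept direction and call, 34 reversed and 8 passed the threshold where the main value did not, and the causes were not tested. Of the list-gene values, 76 kept their call and 13 lost it. Genes called late against early in fibroblast-like, endothelial-like and squamous-like cells numbered 0, 3 and 0, and were 9, 13 and 18 with DESeq2, 42, 56 and 79 without a filter on low counts, and 3 to 169, 0 to 55 and 7 to 76 when 1 library was left out. With library structure as a term they were 11 and 87 in endothelial-like and squamous-like cells. Genes called tumor against normal in fibroblast-like, endothelial-like and columnar-like cells numbered 82, 124 and 151, and were 411, 333 and 251 without a filter, 322, 367 and 366 with dual-index libraries alone, and 44 to 281, 163 to 410 and 64 to 392 with 1 library left out. DESeq2 called 143 in fibroblast-like and 372 in columnar-like cells, and adding unnamed epithelial clusters, chosen after seeing the data, gave 59. Interaction calls numbered 166, against 31 with DESeq2, 104 without pericyte-marker cells and 123 to 175 with 1 library left out. Members highest in endothelial-like cells numbered 4 in tumors and 2 in normal colon, and 3 and 1 by means over single cells.

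The 34 reversals concerned values not called. Fibroblast-like Col4a1, tumor against normal (0.02), was -0.011 with DESeq2, -0.011 with its size factors in edgeR, -0.054 without a filter, -0.090 with telocyte-like cells added, -0.90 without pericyte-marker cells and -0.45 to 0.40 with 1 library left out. Col4a2 was -0.47 without pericyte-marker cells and -0.33 to 0.46 with 1 library left out, and Nid1 was 0.28 in dual-index libraries and -0.60 to 0.25. Columnar-like Col4a2, Lamc1 and Col18a1 were 0.21, 0.24 and 0.36 at resolution 2, and Lamc1, Nid1 and Col18a1 were 0.47, 0.15 and 0.49 with unnamed clusters added. With 1 library left out, columnar-like Col4a2 was -0.78 to 0.087 and Lamc1 -0.49 to 0.23. The Col4a1 interaction was 0.046 without a filter, 0.62 without pericyte-marker cells and -0.49 to 0.18 with 1 library left out. Late against early, fibroblast-like Lama4 was -0.091 with the structure term and -3.73 to 1.40 with 1 library left out, Col4a6 was -0.86 to 6.45 and Lamb1 -1.76 to 0.58. Endothelial-like Lamb1 was -1.24 to 0.049 and Col18a1 -0.68 to 0.044. Squamous-like Col4a1 was 0.0052 without a filter, 0.030 at resolution 2 and -0.68 to 1.06 with 1 library left out.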
